A study of Mus musculus with 12 samples.

Results

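Sox1, Sox2, Sox3, Sox9 and Sox21 are 5 transcription factor genes of neural progenitors and glia, among 19 Sox family genes and 52636 genes counted in each library. They were chosen by name, as genes of the SoxB group and the glial Sox9, after Sox1 had been seen to be lower in Fst knockout mice than in wild type. The comparison of KO with WT therefore served the choice, and in it the 5 genes are described, with no p and nothing read from calls. The vector comparison did not enter the choice.

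Sox proteins bind DNA through a high mobility group (HMG) box and act with partner factors. Sox1, Sox2 and Sox3 form the SoxB1 subgroup, activators that hold neural progenitors in an undifferentiated state and can replace one another in part. Sox21 is a SoxB2 protein, known mainly as a repressor that counteracts SoxB1 activity. Sox9, of the SoxE subgroup, drives gliogenesis and stays on in astrocytes. In the adult dentate gyrus, a hippocampal region where granule neurons go on being born, Sox2 and Sox9 mark radial stem cells and astrocytes, and Sox1 marks a progenitor population of the subgranular zone.

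The 12 libraries were made from total RNA of the dentate gyrus of mice of strain C57BL/6, with 3 in each of these 4 groups: Fst knockout (KO), wild type (WT), mice that the labels call overexpressing (OE) with AAV9-CB::Fst (Fst vector), and knockouts given AAV9-CB::GFP (GFP vector). AAV9 is an adeno-associated virus capsid and Fst encodes follistatin, a secreted antagonist of activins. The labels give no age, no genotype for the OE mice, and neither the cells that lack Fst nor those that the vectors reach. Libraries are named by the replicate in their titles, M1, F1 and M2 in KO and WT, and M1, M2 and F in the vector groups. The design text does not settle whether a library is 1 mouse or a pool, so the spread between libraries may be partly technical.

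Libraries held 8081824 to 11331337 counts, so 3 counts, the floor used here, correspond to 0.265 to 0.371 CPM (counts scaled by the library total). Fst stood at 0.203 to 0.428 CPM in KO and 3.54 to 4.50 CPM in WT, and at 165.7 to 204.1 CPM with the Fst vector and 0 to 0.0974 CPM with the GFP vector. Markers of mature granule cells summed to 1570 to 2281 CPM over 10 genes in every library, with 0 of the 10 at 0 throughout. The share of ribosomal RNA was 0.575 to 0.679% in 5 libraries, Fst vector M2 and F, GFP vector M2, KO M2 and WT F1, and at most 0.0211% in the 7 others. Titles and descriptions give different sexes for 4 libraries of KO and WT, and Xist and Ddx3y, genes of female and male cells, followed the titles: Xist stood at 1520 CPM in KO F1 and 1785 CPM in WT F1, with Ddx3y at 0, and Ddx3y at 62.7 CPM in KO M2 and 58.7 CPM in WT M2. GFP vector F had 4864 CPM of Gfap, the astrocyte filament gene, against 566 and 1555 CPM in the other GFP vector libraries. It was not the only vector library to depart from the rest. Calb1, of the granule cell list, stood at 67.8 CPM in GFP vector F, 134.6 in GFP vector M2 and 93.9 in Fst vector F. All other libraries had 201.2 to 243.5 CPM of it.

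The members are alike where the HMG box is encoded, which is why that stretch is shown. In GENCODE M21 (GRCm38), a script took the 60 coding bases of Sox1 that were best matched without gaps in the coding sequences of the other 4 genes. Capitals mark bases that differ from Sox1 at the same place, and each line runs 5′ to 3′ on the gene's own strand.
Sox1: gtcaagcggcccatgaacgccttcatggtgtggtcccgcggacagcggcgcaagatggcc
Sox2: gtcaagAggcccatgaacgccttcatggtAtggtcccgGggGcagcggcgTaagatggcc
Sox3: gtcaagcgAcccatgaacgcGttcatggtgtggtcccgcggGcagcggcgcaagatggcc
Sox21: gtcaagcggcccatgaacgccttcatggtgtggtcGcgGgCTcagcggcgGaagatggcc
Sox9: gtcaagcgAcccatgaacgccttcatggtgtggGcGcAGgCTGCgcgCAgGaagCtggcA
These lie at chr8:12396511-12396570 (plus strand) in Sox1, chr3:34650542-34650601 (plus) in Sox2, chrX:60892942-60893001 (minus) in Sox3, chr14:118235555-118235614 (minus) in Sox21 and chr11:112782897-112782956 (plus) in Sox9. Of the 60 bases, 57 in Sox3, 55 in Sox2, 55 in Sox21 and 46 in Sox9 were those of Sox1. The 4 SoxB genes have 1 exon each and Sox9 has 3.

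The likeness was too short to make the members exchangeable for longer reads. The longest run shared without a mismatch by the transcripts of any 2 members was 45 bases, between Sox1 and Sox3, and the longest that Sox1 shared with Sox2 was 38 bases. None of the 100-base windows of Sox1, Sox2, Sox3 or Sox9 occurred in a transcript of another annotated gene. No read length was found in the labels.

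Sox1 (ENSMUSG00000096014, chromosome 8, 12395295 to 12400126, plus strand) and Sox2 (ENSMUSG00000074637, chromosome 3, 34650405 to 34652461, plus strand) each lie inside a long noncoding transcript of the same strand, Sox1ot and Sox2ot. In this annotation 0 of the 4832 exon bases of Sox1 and 0 of the 2057 of Sox2 belong to an exon of the surrounding transcript. Both coding genes thus sit in introns of the noncoding ones, and only reads of unspliced Sox1ot or Sox2ot could fall on them. A miRNA annotated inside the Sox1 exon, Gm25239, had 0 counts in all 12 libraries. Sox21 (ENSMUSG00000061517, chromosome 14, 118233232 to 118237030, minus strand) shares 713 exon bases with Gm4675, a noncoding gene on the opposite strand. Gm4675 had 30 counts over the 12 libraries, where Sox21 had 1025, and without knowledge of strand the reads of the pair cannot be told apart. No other annotated gene overlaps Sox3 (ENSMUSG00000045179, chromosome X, 60891366 to 60893430, minus strand) or Sox9 (ENSMUSG00000000567, chromosome 11, 112782224 to 112787760, plus strand).

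Per length, Sox2 was the most abundant of the 5 genes and Sox9 came next, in all 12 libraries. Levels per kb of exon averaged 19.0 ± 4.01 CPM per kb for Sox2 and 9.03 ± 1.29 for Sox9 (SD over 12 libraries, all groups). Sox21 averaged 2.31 ± 0.477, Sox1 1.61 ± 0.486 and Sox3 1.37 ± 0.418 CPM per kb. Sox21 was above Sox3 in 12 of 12 libraries and above Sox1 in 11 of 12, WT M1 being the other. Sox1 and Sox3 were not ordered consistently per kb, Sox1 being the higher in 7 of 12 libraries. In KO, Sox1 exceeded Sox3 per kb in 1 of 3 libraries, and in WT it did so in 3 of 3.

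Sox1 was the member that differed between KO and WT, and this is the difference by which it was chosen. KO libraries M1, F1 and M2 held 48, 52 and 44 counts of Sox1, against 124, 77 and 114 in the WT libraries of the same names. As CPM these were 5.16, 5.57 and 4.47 in KO, against 13.0, 8.26 and 10.1 in WT. The KO libraries lay close together and all below WT, while WT libraries were spread more widely, with a coefficient of variation of 11.0% in KO and 23.0% in WT. Exact 95% counting intervals were 10.8 to 15.5 CPM for WT M1 and 6.52 to 10.3 CPM for WT F1, which do not meet, so the spread within WT exceeded counting error. Summed over libraries, 144 counts in KO and 315 in WT gave a rate ratio of 0.484, which describes the contrast that chose Sox1. The log2 change was -1.03 ± 0.19 (SE, edgeR). WT F1, the lowest of WT, is also its library with high ribosomal RNA, and KO M2, the lowest of KO, is that of KO. With the share of ribosomal RNA as a term the log2 change was -0.98 ± 0.18 (SE, edgeR), and the effect of that share on Sox1 was itself not tested. Without the libraries of high ribosomal RNA the log2 change was -1.07.

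**Figure D1:**
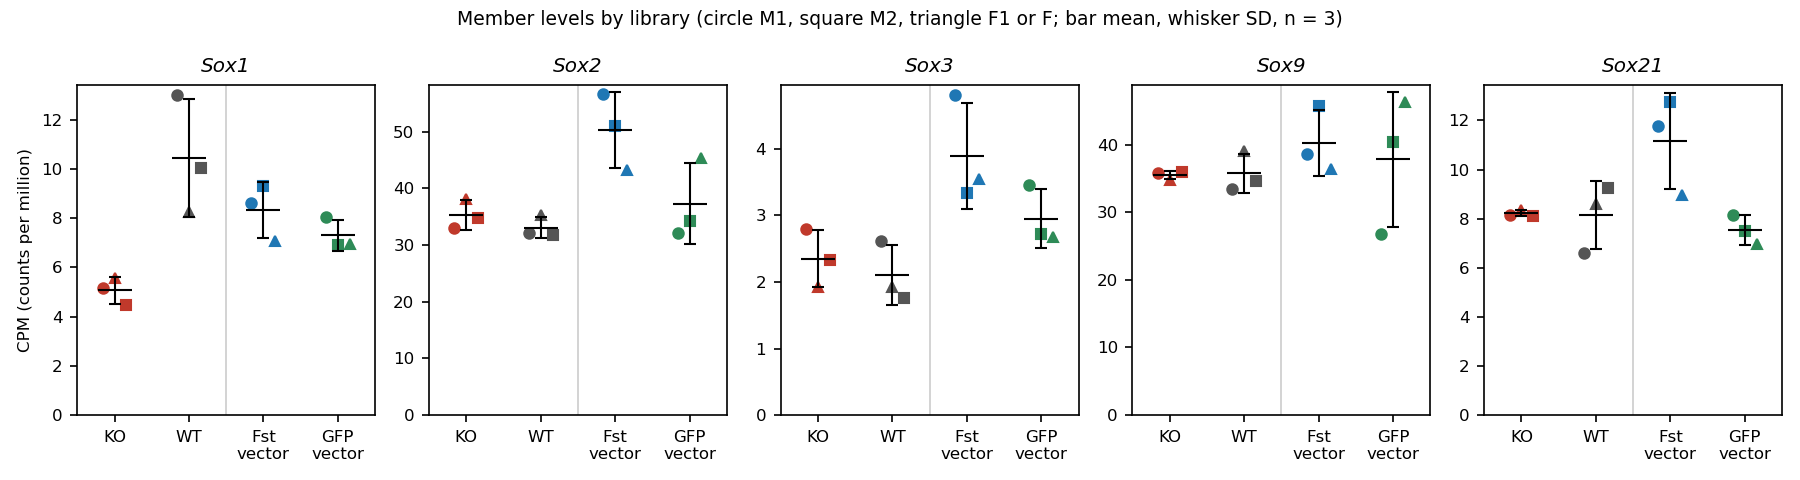
CPM of the 5 genes in each of the 12 libraries, with 1 panel per gene and its own axis from 0. Circles are M1, squares M2 and triangles F1 or F, and bars and whiskers give the mean and SD of 3 libraries. In the Sox1 panel KO (4.47 to 5.57 CPM) lies below WT (8.26 to 13.0 CPM), and the vector groups lie mostly between them. For the other genes KO and WT overlap.

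The other 4 genes had overlapping values in KO and WT, and levels that differed little. Sox2, the core SoxB1 factor of neural stem cells, stood at 33.0, 38.1 and 34.7 CPM in KO M1, F1 and M2, against 32.1, 35.3 and 31.9 CPM in WT. Its log2 change was 0.11 ± 0.09 (SE, edgeR), with a 95% interval of -0.08 to 0.30. Sox3, an X-linked SoxB1 gene, was low, at 2.79, 1.93 and 2.34 CPM in KO and 2.62, 1.93 and 1.77 CPM in WT. With 67 counts in KO and 63 in WT its log2 change of 0.18 ± 0.31 had an interval of -0.45 to 0.81, so that changes of either sign below these bounds could not be resolved at this depth. Sox9 had 35.8, 34.8 and 36.0 CPM in KO and 33.5, 39.0 and 34.7 CPM in WT, with a log2 change of 0.01 ± 0.09 and an interval of -0.18 to 0.19. Sox21 had 8.16, 8.35 and 8.13 CPM in KO, and 6.61, 8.58 and 9.27 CPM in WT. Its log2 change was 0.02 ± 0.17, with an interval of -0.32 to 0.37. Of the 5 genes edgeR called 1, Sox1, where 0.0268% of the 14919 genes tested were called. The libraries of 1 member did not overlap, where 11.0% of all genes had no overlap. Since the members were chosen on this contrast, nothing is read from these counts, and the call of Sox1 was lost in DESeq2 and on leaving out any 1 library other than WT F1.

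Sox1 also made up less of the SoxB1 counts in KO. Within each library, Sox1 was 12.6, 12.2 and 10.8% of the summed counts of Sox1, Sox2 and Sox3 in KO M1, F1 and M2, against 27.3, 18.2 and 23.0% in WT. The summed level of the 3 genes was 40.9, 45.6 and 41.5 CPM in KO, against 47.8, 45.5 and 43.7 CPM in WT. The shares did not overlap between KO and WT and the sums did. In the vector groups the share was 12.3, 14.6 and 13.1% in Fst vector M1, M2 and F, and 18.4, 15.7 and 12.7% in GFP vector M1, M2 and F. These shares are free of the scaling of libraries, and they restate the choice of Sox1 in a measure that Sox2 dominates.

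**Figure D2:**
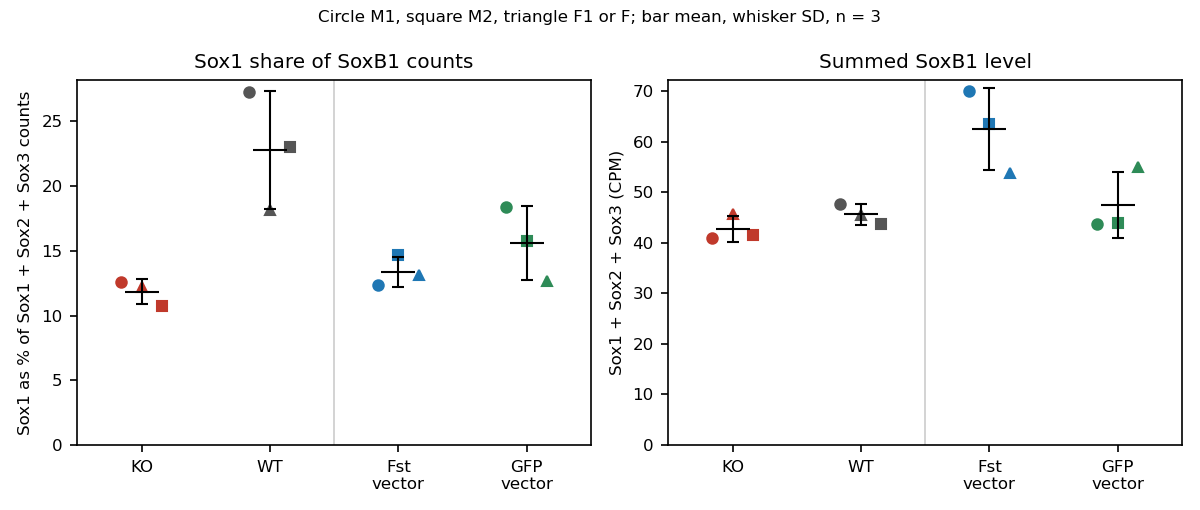
Left, Sox1 as a percentage of the summed counts of Sox1, Sox2 and Sox3 in each library. Right, the summed CPM of these 3 genes, with symbols, bars and whiskers as mean and SD of 3 libraries. The share is 10.8 to 12.6% in KO and 18.2 to 27.3% in WT, and the summed level is highest with the Fst vector, at 53.9 to 70.1 CPM.

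The transcript around Sox1 had lower values in KO but did not pass the main test. Sox1ot, a noncoding RNA of no established function here, stood at 6.44, 8.78 and 9.55 CPM in KO M1, F1 and M2, against 14.3, 13.0 and 13.1 CPM in WT. The groups did not overlap, as with 7.04% of all genes, which were lower in KO without overlap. The log2 change was -0.68 ± 0.16 (edgeR quasi-likelihood test, adjusted p = 0.144, and 0.999 in DESeq2). It was below 0 in 14 of 14 alternative fits and passed in 2, with no filter and with sex as a term (edgeR quasi-likelihood tests, adjusted p = 0.011 and 0.0496). Sox1 counts were 46.8 to 80.0% of Sox1ot counts in KO and 63.6 to 91.2% in WT, ranges that overlap. Sox2ot, around Sox2, had 9.77, 8.14 and 7.62 CPM in KO and 5.35, 9.44 and 8.47 CPM in WT, which overlapped. How far unspliced Sox1ot adds to the count of Sox1 was not tested.

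The vector comparison asks whether the members differ between mice given Fst and knockout mice given GFP, and in it no member passed. Sox1 stood at 8.64, 9.32 and 7.09 CPM in Fst vector M1, M2 and F, against 8.04, 6.91 and 6.96 CPM in GFP vector M1, M2 and F. The groups overlapped, and the log2 change was 0.16 ± 0.21 (SE, edgeR quasi-likelihood test, adjusted p = 0.854). Its 95% interval was -0.31 to 0.63.

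Sox2 and Sox21 had higher means with the Fst vector, and neither passed the adjusted test. Sox2 stood at 56.7, 50.9 and 43.3 CPM in Fst vector M1, M2 and F, against 32.2, 34.3 and 45.4 CPM in GFP vector M1, M2 and F. The groups overlapped in their F libraries alone, where the GFP vector was the higher. The log2 change of Sox2 was 0.40 ± 0.17 (edgeR quasi-likelihood test, adjusted p = 0.521), with an interval of 0.01 to 0.78. Sox21, the SoxB2 repressor, stood at 11.8, 12.8 and 8.97 CPM with the Fst vector, against 8.17, 7.50 and 6.96 CPM with the GFP vector. It was the 1 member whose vector groups did not overlap, where 16.5% of all genes had no overlap. Its log2 change was 0.53 ± 0.21 (edgeR quasi-likelihood test, adjusted p = 0.471), with an interval of 0.06 to 1.01.

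The log2 change of Sox3 was near that of Sox2 with a larger SE, while Sox9 was close between the vector groups. Sox3 had 4.81, 3.34 and 3.54 CPM with the Fst vector, and 3.46, 2.73 and 2.67 CPM with the GFP vector, a log2 change of 0.37 ± 0.29 (edgeR quasi-likelihood test, adjusted p = 0.747). Sox9 had 38.6, 45.8 and 36.4 CPM with the Fst vector, and 26.7, 40.4 and 46.3 CPM with the GFP vector, a log2 change of 0.05 ± 0.20 (edgeR quasi-likelihood test, adjusted p = 0.959). The GFP vector libraries thus ran from the lowest to the highest Sox9 value of the series.

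Over the 5 genes edgeR called 0 in the vector comparison, where 0.0798% of 15034 genes were called. At unadjusted p under 0.05 it had 2, where 9.51% of all genes did. DESeq2 called 0 of the 5, where it called 247 of 15123 genes. It had 1 of the 5 at unadjusted p under 0.05, where 1419 genes were. All 5 log2 changes were above 0, as were 51.0% of all, and their median was 0.37 beside 0.01 over all genes. On simulated counts of this comparison with 14821 genes, 50% of changes of 2 fold and 7% of changes of 1.5 fold were recovered, so changes of the size seen for Sox2 and Sox21 would mostly be missed. GFP vector F, with its high Gfap, had the highest Sox2 and Sox9 of its group and the lowest Sox21. Without GFP vector F the log2 change was 0.56 for Sox2 and 0.48 for Sox21, and both still missed the adjusted test (edgeR quasi-likelihood, adjusted p = 0.401 and 0.751).

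Across the tables, which were deposited separately, vector and table cannot be told apart and no test was made. GFP vector libraries had more Sox1 than untreated KO without overlap, 6.91 to 8.04 CPM against 4.47 to 5.57 CPM, although both groups are knockouts. KO was the group in which Sox1 had been chosen as low. The Fst vector libraries overlapped WT in Sox1, at 7.09 to 9.32 CPM against 8.26 to 13.0 CPM. They exceeded WT without overlap in Sox2, at 43.3 to 56.7 against 31.9 to 35.3 CPM, and in Sox3, at 3.34 to 4.81 against 1.77 to 2.62 CPM. The GFP vector libraries too lay above WT in Sox3 without overlap, at 2.67 to 3.46 CPM, and in Sox1 they lay below WT without overlap. Against KO, every member was higher with the Fst vector without overlap. The share of all genes without overlap was not computed for these pairs of groups, so nothing is read from the separations. Lowest first, group means of Sox1 were 5.06 ± 0.555 CPM in KO, 7.31 ± 0.637 with the GFP vector, 8.35 ± 1.14 with the Fst vector and 10.4 ± 2.40 in WT (SD, n = 3 each). GFP vector and Fst vector overlapped, as did Fst vector and WT.

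The other Sox genes that passed the filter differed less between KO and WT than Sox1, which that contrast chose. Of the 14 Sox genes outside the 5 members, 11 passed the count filter in each comparison. In either comparison 0 of the 11 were called and 0 had unadjusted p under 0.05 by edgeR. Over all genes 0.0268% were called and 5.96% had such a p in KO against WT. In the vector comparison the shares were 0.0798% and 9.51%. Counts of 0 among 11 are near these shares, so nothing is read from them. In KO against WT the log2 changes of the 11 genes lay between -0.24 for Sox13 and 0.21 for Sox18. Their median was 0.02, beside -0.00085 over all genes. Sox4 and Sox11, the SoxC genes of newborn neurons, had log2 changes of 0.02 ± 0.16 and -0.11 ± 0.09. The SoxE genes Sox8 and Sox10 of the oligodendrocyte lineage had -0.10 ± 0.10 and 0.10 ± 0.12. In the vector comparison the 11 genes ran from -0.77 for Sox7 to 0.40 for Sox17, both genes of endothelium. Sox11 had 42.9, 41.0 and 71.4 CPM with the Fst vector, against 44.3, 71.9 and 112.8 CPM with the GFP vector, with its F library the highest in both groups. Sox14 had 0 counts in all libraries, and Sox15 and Sox30 stayed below the filter. Sox15 had 9, 13 and 7 counts in Fst vector M1, M2 and F, against 2, 5 and 0 in GFP vector M1, M2 and F, and was not tested.

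**Figure D3:**
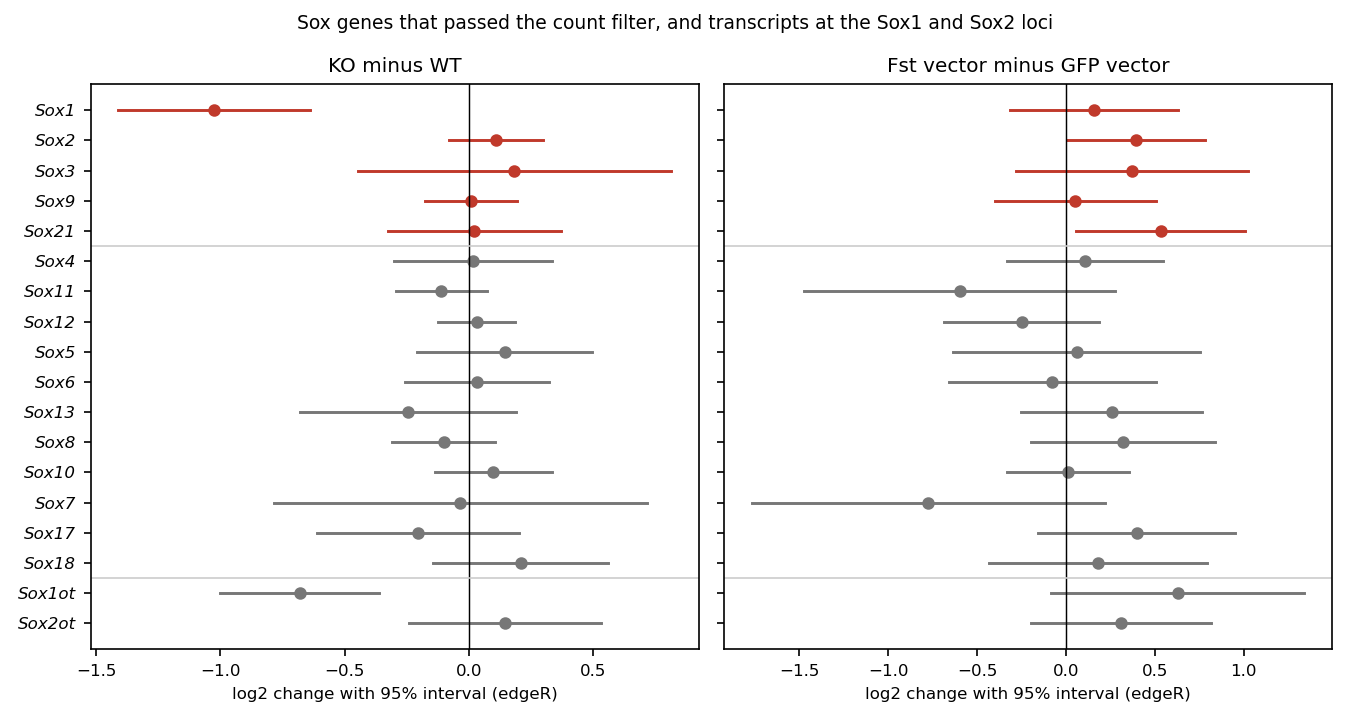
Log2 changes with 95% intervals from edgeR, KO minus WT on the left and Fst vector minus GFP vector on the right. Red marks the 5 members, grey the 11 other Sox genes that passed the count filter and, below the lower line, Sox1ot and Sox2ot. Left, Sox1 (-1.03) and Sox1ot (-0.68) lie lowest. Sox1 was chosen by this contrast, so nothing is read from its interval, and Sox1ot did not pass the adjusted test. Right, the 5 members lie between 0.05 and 0.53.

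The progenitor and glial genes that act beside these factors give the setting. Over 12 lists of cell type markers and regulators, edgeR called 0 of 140 tested entries in KO against WT and 0 of 142 in the vector comparison. Over all genes 0.0268% and 0.0798% were called, so these counts show nothing particular to the lists. Some genes stand in more than 1 list and are counted in each. In bulk RNA fewer cells of a type and less RNA per cell cannot be told apart. Of 36 tested regulators of progenitors, mostly of Notch, Hedgehog and FGF signalling, 13 had positive and 23 negative log2 changes in KO, where 49.7% of all genes were positive. The libraries of 7 were lower in KO without overlap, where 7.04% of all genes were, and 1 was higher, where 3.98% of all genes were. Among them were Dll1 and Dll3, Notch ligand genes of committed progenitors. Dll1 stood at 5.59, 7.07 and 7.01 CPM in KO M1, F1 and M2, against 8.19, 11.5 and 9.80 CPM in WT, with a log2 change of -0.56 ± 0.18. Id4, an inhibitor of basic helix-loop-helix factors that keeps stem cells quiescent, averaged 81.3 ± 2.04 CPM in KO and 95.4 ± 7.41 CPM in WT (SD, n = 3 each) without overlap, a log2 change of -0.22 ± 0.07. None of these passed adjustment over all genes, and they come from the contrast that chose the members.

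Of 12 tested markers of newborn neurons, 3 were lower in KO without overlap, where 7.04% of all genes were, and 0 passed the adjusted test (edgeR, with 3 at unadjusted p under 0.05). Dcx, which encodes the microtubule protein of migrating neurons, averaged 16.9 ± 1.86 CPM in KO and 22.8 ± 1.79 CPM in WT (SD, n = 3 each). Of the 12, 3 had positive and 9 negative log2 changes, with a median of -0.03. Astrocyte markers, which share cells with Sox2 and Sox9, summed to 5971 to 6130 CPM in KO and 6095 to 6215 CPM in WT over 16 genes. Of these 16 genes 5 had positive and 11 negative log2 changes, and the libraries of 5 were lower in KO without overlap and of 1 higher, where 7.04% and 3.98% of all genes were. Radial glia-like markers summed to 1292 to 1391 CPM in KO and 1282 to 1356 CPM in WT over 20 genes. Of 16 tested, 5 had positive and 11 negative log2 changes, and the libraries of 2 were lower in KO without overlap. Both sums overlapped between KO and WT, and no gene of these lists was at 0 throughout.

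In the vector comparison, 17 radial glia-like markers were tested, 12 with positive and 5 with negative log2 changes and a median of 0.15. Over all genes 51.0% were positive. The libraries of 5 were higher with the Fst vector without overlap, where 10.5% of all genes were. Hes5, a Notch target of stem cells, stood at 7.07, 4.66 and 3.32 CPM in Fst vector M1, M2 and F, against 2.60, 2.24 and 0.572 CPM in GFP vector M1, M2 and F. Its log2 change was 1.46 ± 0.51 (edgeR quasi-likelihood test, adjusted p = 0.421). Hopx, a homeodomain cofactor of quiescent stem cells, had 66.4, 52.5 and 54.0 CPM with the Fst vector, against 37.1, 47.2 and 25.5 CPM with the GFP vector. Its log2 change was 0.62 ± 0.22 (edgeR quasi-likelihood test, adjusted p = 0.421). GFP vector F was the lowest library of its group in both genes, and it had the highest sums of astrocyte markers (10522 CPM) and radial glia-like markers (6023 CPM), to which Gfap contributed 4864 CPM. Gfap and Vim, of the radial glia-like list, went the other way. Gfap averaged 755 CPM with the Fst vector and 2328 CPM with the GFP vector, and Vim 53.0 and 151 CPM, with 358 CPM of Vim in GFP vector F. Radial glia-like sums were 1772 to 2126 CPM with the Fst vector and 1616 to 6023 CPM with the GFP vector. Astrocyte sums were 5908 to 6685 CPM with the Fst vector and 5464 to 10522 CPM with the GFP vector, and their part in the values of Sox2, Sox9 and Sox21 was not tested.

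The genes whose pattern over the 12 libraries was most like that of Sox1 were not the other members. Likeness was the root-mean-square difference between log2 values (TMM-scaled CPM plus 1), each gene centred on its own mean, over 14993 genes with a mean of at least 1 CPM. The nearest were Gorab (0.212 log2 units), Dlx6 (0.222), Trp73 (0.224), Mks1 (0.234) and Tmem267 (0.237). Trp73 encodes p73, a p53 relative of Cajal-Retzius cells, and Dlx6 a homeodomain factor of interneurons. Trp73 stood at 5.16, 6.96 and 6.09 CPM in KO M1, F1 and M2, against 9.45, 7.72 and 9.35 CPM in WT. A gene with no change at all would have been at 0.355. Sox21 was at 0.407, Sox9 at 0.420, Sox2 at 0.437 and Sox3 at 0.439, so each of the 4 was further from Sox1 than a flat profile. So were most genes, since a flat profile would have ranked 1858 among the 14993. The 4 members ranked from 6698 (Sox21) to 9166 (Sox3), which does not set them apart from other genes. Sox1ot, which was low in KO but also with the GFP vector (3.96 to 8.08 CPM), was at 0.446. The KO and WT values that chose Sox1 enter this measure, and genes near the floor, Dlx6 and Tmem267 among them, carry more counting error.

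**Figure D4:**
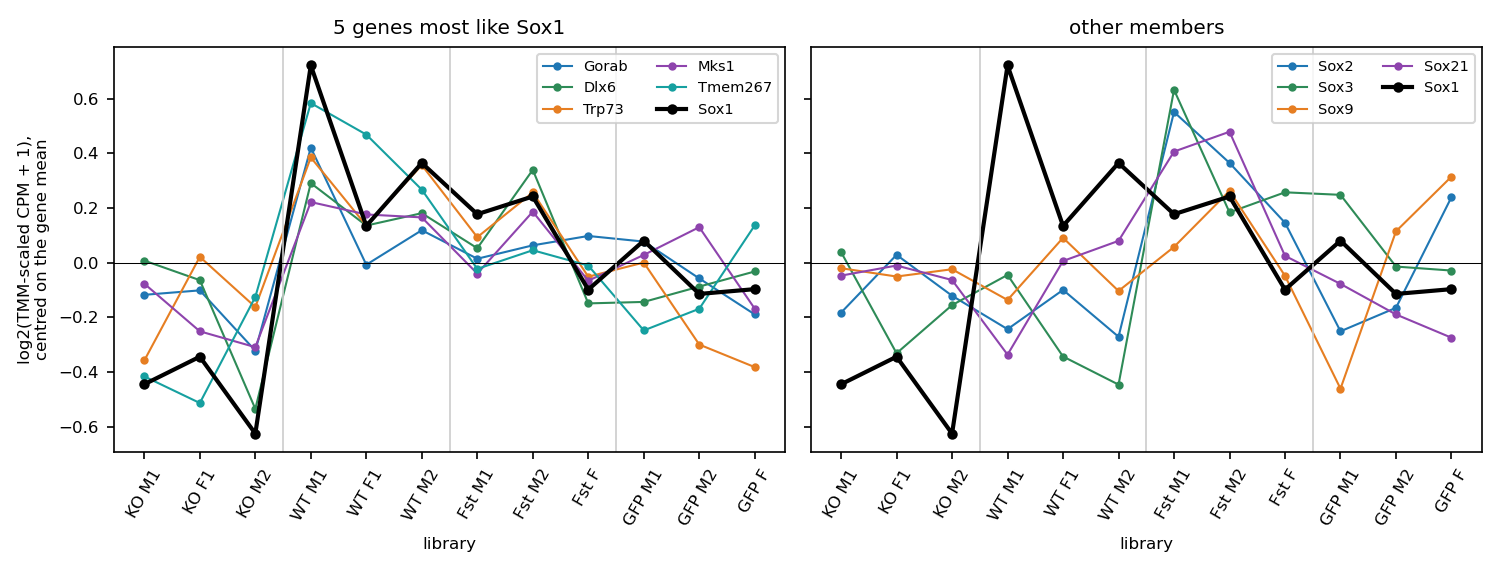
Log2 values (TMM-scaled CPM plus 1), centred on each gene's mean, in the 12 libraries, with Sox1 in black in both panels. Left, the 5 genes with the smallest root-mean-square difference from Sox1 (0.212 to 0.237 log2 units). Right, the other 4 members (0.407 to 0.439), which do not share the step between KO and WT.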

How the data were processed

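The deposited values were raw counts for each Ensembl gene ID, and KO and WT shared 1 table and both vector groups another, per the file headers. The submitters' processing notes name GRCm38. The sources used here do not give the aligner, counter, annotation or strand setting. Lines that name no gene (6 in the KO and WT table, 12 in the other) held no counts and were left out. Symbols and coordinates came from GENCODE M21, which named 52403 of 52636 IDs, and all 5 members were in both tables. CPM are counts scaled by library totals, 8081824 to 11331337, and intervals cover counting error only. The 5 members, the lists and the named genes were chosen with earlier results of these data known. Named list genes were, per comparison, up to 3 with the smallest p. Each comparison was fitted on its own 6 libraries with edgeR 4.0.16 (R 4.3.3), using TMM, filterByExpr, robust quasi-likelihood and Benjamini-Hochberg adjustment over all genes at 0.05. SE is the size of the log2 change over the root of its F statistic. The fit was tested on simulated data: of changes of 2 fold it recovered 98% in KO against WT and 50% in the vector comparison. Each simulation held 100 changes of 2 fold and 100 of 1.5 fold. It gave 11 false calls in KO against WT, and 10 in the vector comparison. The changed genes had a mean of at least 50 counts, which Sox3 does not reach. Alternatives were RLE or total scaling, no filter, DESeq2 1.42.0, replicate, sex or ribosomal RNA terms, and leaving out libraries. Same-named libraries of the vector groups deviated together (correlations 0.352, 0.154 and 0.407 for M1, M2 and F), all over 0.1. Fst vector M2 and GFP vector M1, of different names, were also over 0.1 (0.132). The labels say nothing of pairs. Unless an alternative is named, the SE, intervals and p given come from the fit without pairs. Pairing entered only as the replicate block, which rests on these correlations.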

Additional observations from a re-analysis of the deposited data

How the results depend on the processing

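With 14 alternatives for each member and comparison, Sox1 stayed lower in KO than in WT in 14 of 14, with log2 changes from -1.16 to -0.84. No p is given for it, since this contrast chose it. In the vector comparison 0 of the 5 members passed in any of the 14, with adjusted p from 0.281 to 0.997 over the 5. Sox1, Sox2, Sox3 and Sox21 stayed above 0 in 14 of 14, while Sox9 ran from -0.14 to 0.22 when 1 library was left out, falling below 0 without GFP vector M1 (-0.14) and Fst vector M2 (-0.04).

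Counts of all genes called moved more. KO against WT had 4 genes, and 46 with no filter, 23 with the replicate block, 30 with sex as a term, 20 without libraries of high ribosomal RNA (chosen after seeing the data), and 2 to 17 when 1 library was left out. The vector comparison had 12, and 230 with no filter, 247 in DESeq2, 141 with the replicate block, 132 with sex as a term, 4 with the ribosomal RNA term, 0 without libraries of high ribosomal RNA (630 at unadjusted p under 0.05, with 1 Fst vector library assumed to vary like the others), and 1 to 29 when 1 library was left out. The block changed no call among the members. KO and WT libraries of the same name did not all deviate together (0.0637, 0.0784 and -0.14 for M1, F1 and M2). Of the 5 genes most like Sox1, 3 remained with a floor of 5 CPM. Sox3, with 18 to 49 counts per library, was limited most by depth.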
